A study of Mus musculus with 4 samples.

Results

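The genes of peptide presentation by major histocompatibility complex (MHC) class I were examined in 4 cultured mouse mammary tumor cell lines. The 10 genes were chosen by their symbols: the class I heavy chains H2-K1 and H2-D1, the light chain B2m, the loading genes Tap1, Tap2 and Tapbp, the immunoproteasome subunits Psmb8, Psmb9 and Psmb10, and the class I transactivator Nlrc5. All 10 were found among the 38713 genes used and among the 12998 genes tested. Mean levels were higher in the JNK-deficient lines for each of them, by 2.22-fold (Psmb9) to 6.85-fold (Tap1) for 8 genes, and by 1.13-fold for Tapbp and 1.14-fold for Psmb10. No difference passed the test over all genes, and the JNK-proficient lines lay far apart from each other for most of these genes.

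All lines carry the strain label C57BL/6. The tumors came from parous female mice in which Cre recombinase was driven by the Wap promoter, active in mammary epithelium. In both groups Cre deleted floxed Trp53, the p53 gene, so the controls (genotype p53-/-, JNK_WT replicates 1 and 2) lack p53 too. In the other group (genotype p53-/- JNK-/-, JNK_KO replicates 1 and 3) floxed Mapk8 (JNK1 kinase) and floxed Mapk9 (JNK2 kinase) were deleted as well. Tumors were dispersed with collagenase and grown first on collagen I and then on plain dishes until a line was established, with no treatment given and no age stated. Each line stands for 1 tumor and gave 1 library (n = 2 per genotype). The p-values therefore measure the difference between genotypes against a spread estimated from only 2 lines each. In limma this spread is also drawn towards a trend over all genes tested.

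Class I molecules display peptides from inside the cell to CD8+ T cells. Proteasomes cut cytosolic proteins into peptides, the TAP transporter moves these into the endoplasmic reticulum, and tapasin holds the empty heavy chain and B2m at the transporter until a peptide is bound. Interferons raise most of these genes, and the subunits encoded by Psmb8, Psmb9 and Psmb10 then take the places of the standard catalytic subunits encoded by Psmb5, Psmb6 and Psmb7. NLRC5 acts at class I promoters through the conserved SXY module, which is bound by RFX, CREB/ATF and NF-Y factors.

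The promoters of 8 of the 10 genes were matched in a RefSeq table (GRCm38.p6, 250 bases before to 50 bases after the transcription start). The stretches of H2-K1, H2-D1 and B2m are shown because they share a pair of boxes at an identical spacing. Each runs 5′ to 3′ on the strand of its gene and ends at the base before the RefSeq start, which for H2-D1 lies inside the longer gene model of the GENCODE annotation used for positions further on. Capitals mark matches to the NF-kB consensus, an interferon regulatory factor element, and the boxes TGACG and ATTGG.
H2-K1, chr17:34000348-34000537, minus strand: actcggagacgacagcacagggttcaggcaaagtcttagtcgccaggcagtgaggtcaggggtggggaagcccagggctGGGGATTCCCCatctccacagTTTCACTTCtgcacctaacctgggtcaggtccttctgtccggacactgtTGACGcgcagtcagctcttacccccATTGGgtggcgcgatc
H2-D1, chr17:35262904-35263093, plus strand: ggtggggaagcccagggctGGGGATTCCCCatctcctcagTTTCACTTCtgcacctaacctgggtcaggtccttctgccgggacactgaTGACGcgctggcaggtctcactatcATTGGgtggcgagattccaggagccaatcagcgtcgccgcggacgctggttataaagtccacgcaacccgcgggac
B2m, chr2:122147497-122147686, plus strand: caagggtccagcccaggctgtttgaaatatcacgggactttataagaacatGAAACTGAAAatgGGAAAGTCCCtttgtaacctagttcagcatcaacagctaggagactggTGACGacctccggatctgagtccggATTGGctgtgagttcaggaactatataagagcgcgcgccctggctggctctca

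In H2-K1 and H2-D1 the capitals follow the order NF-kB consensus, interferon element (GAA and GAAA separated by 2 bases, read on the other strand), TGACG and last ATTGG. In B2m the interferon element comes first, in its full form of GAAA and GAAA separated by 2 bases, and the NF-kB match after it is read on the other strand. The boxes TGACG and ATTGG, which resemble the X2 and Y boxes of the SXY module, were separated by 20 bases in all 3 promoters. This pair, searched at a spacing of 15 to 30 bases on both strands, was present in 0.575% of 32851 promoters of the same length. The NF-kB consensus was present in 4.51%, the full interferon element in 3.44% and the shorter one in 7.52%. Among the 8 matched genes, the pair, the NF-kB consensus and the interferon elements were found only in these 3. A further motif, TTC and GAA separated by 3 bases, was present in 8.3% of promoters and among the 8 genes only in Psmb8. The pair and the shorter interferon element were chosen for search after the sequences had been read, and a match describes letters, not a bound site. The H2-K1 and H2-D1 promoters are also close relatives, with 88.3% of 239 aligned bases identical and a longest identical run of 47 bases.

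Tap1 and Psmb9 are transcribed away from each other from starts that lie 226 bases apart, so that the 225 bases between them serve as the promoter of both genes. The NF-kB consensus, the interferon elements and the spaced pair of boxes were not found in this stretch, although single TGACG and ATTGG boxes occur on opposite strands. It is shown on the Tap1 strand because the levels of the 2 genes it separates are compared below.
Tap1 and Psmb9, chr17:34187331-34187555, plus strand: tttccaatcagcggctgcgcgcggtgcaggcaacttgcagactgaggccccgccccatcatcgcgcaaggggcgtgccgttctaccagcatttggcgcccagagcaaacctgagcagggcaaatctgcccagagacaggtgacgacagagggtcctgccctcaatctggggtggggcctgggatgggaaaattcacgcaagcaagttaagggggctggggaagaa

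Levels are given as FPKM, fragments scaled by exon length and by the mapped fragments of the library, which can be compared between genes per unit of length. The FPKM summed to between 775960 and 921596 per library, and read depths relative to JNK_WT replicate 1, taken from the steps of low values, lay between 0.940 and 1.32. As a check of the labels, Mapk8 was at 23.9 and 19.1 FPKM in the JNK_WT lines against 4.30 and 4.27 FPKM in the JNK_KO lines. Mapk9 was at 29.7 and 24.3 FPKM in the JNK_WT lines against 12.6 and 8.66 FPKM in the JNK_KO lines. Both were lower in each JNK_KO line and neither was at 0. Trp53, targeted in all lines, was at 1.55 and 4.15 FPKM in the JNK_WT lines against 5.72 and 4.28 FPKM in the JNK_KO lines.

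Markers of the labelled and of other cell types were read beside the class I genes. All 10 epithelial markers were above 0 in all lines, with a summed level of 4760 and 4083 FPKM in the JNK_WT lines against 1653 and 3453 FPKM in the JNK_KO lines. Krt5, named after its values were seen, was under 1 FPKM in all lines but JNK_WT replicate 2 (61.9 FPKM) and was not tested. The largest differences among the 9 tested were in Epcam (-1.20 on the log2 scale), Cldn4 (-1.13) and Krt8 (-1.003), genes of epithelial adhesion, tight junctions and the luminal cytoskeleton. Of 15 leukocyte markers, 13 were under 1 FPKM in all lines, 4 of them at 0 throughout, and Ptprc, the gene of the leukocyte antigen CD45, reached at most 0.0134 FPKM. The leukocyte sum was 23.1 FPKM in JNK_WT replicate 1, of which Cd68 gave 19.95 FPKM, and 3.90 to 10.3 FPKM in the other lines, and the 2 genes tested, Cd68 and Csf1r, differed by -0.67 and -0.24 between genotypes. The 5 endothelial markers summed to between 0.761 and 1.01 FPKM. The 8 fibroblast markers summed to 11.8 and 1.73 FPKM in the JNK_WT lines against 108 and 178 FPKM in the JNK_KO lines, and the median log2 difference of the 4 tested was 2.63, of which 3 passed the filter only through the JNK_KO lines. Dcn, a matrix proteoglycan, was at 0.430 and 0.389 FPKM in the JNK_WT lines against 79.7 and 162 FPKM in the JNK_KO lines (log2 difference 6.35). The growth factor receptor genes Pdgfra and Pdgfrb differed by 3.59 and 1.67. The collagen genes, chosen after their values were seen, overlapped between groups. Col1a1 was under 1 FPKM in all lines, and Col1a2 was at 10.3 and 0.374 FPKM in the JNK_WT lines against 0.698 and 2.56 FPKM in the JNK_KO lines. Col3a1 was at 0.0234 and 0.141 FPKM in the JNK_WT lines against 0.113 and 1.33 FPKM in the JNK_KO lines. Thy1, also named after its values were seen, was not tested but was higher in both JNK_KO lines (0.0861 and 0.0722 against 0.540 and 1.19 FPKM). Lum reached at most 0.0084 FPKM. The fibroblast sums thus moved with genotype in the same direction as the class I genes and the epithelial sums in the opposite direction, and their part in the class I result was not tested. In bulk RNA, fewer cells of a type and less RNA per cell cannot be told apart.

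To ask whether loss of JNK was accompanied by a change in class I gene expression, the levels of each gene were compared between genotypes. H2-K1 (Ensembl ENSMUSG00000061232, mm10 chromosome 17, 33996017 to 34000347, minus strand), which encodes the H-2K heavy chain, reached 290.4 and 118 FPKM in JNK_WT replicates 1 and 2, against 565 and 554 FPKM in JNK_KO replicates 1 and 3. Both JNK_KO lines were close together and above both JNK_WT lines, which differed from each other 2.46-fold. The means were 204 ± 122 and 559 ± 7.25 FPKM (SD, n = 2 each), and the log2 difference was 1.59 (SE 0.48, limma adjusted p-value 0.519), or 0.94 without JNK_WT replicate 2.

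H2-D1 (plus strand of chromosome 17, 35262730 to 35267499), the gene of the H-2D heavy chain, was at 225 and 129.8 FPKM in the JNK_WT lines against 524 and 473 FPKM in the JNK_KO lines. The groups did not overlap, and the JNK_KO mean was 2.81-fold that of JNK_WT (log2 difference 1.54, SE 0.34, limma adjusted p-value 0.381). H2-K1 and H2-D1 stayed within a ratio of 0.909 to 1.29 of each other in all 4 lines. The heavy chain genes share stretches of sequence. Of the 40-base words, 12.2% of those of H2-K1 and 20.5% of those of H2-D1 occur in other genes, so that reads of this length can be assigned to the wrong locus. Between H2-K1 and H2-D1 the shared part was 9.45% and 9.32%. Words of H2-D1 occur in 391 other genes, so a sum over heavy chains does not cover all of this sharing. The summed FPKM of 15 heavy chain genes, which such misassignment among them moves less, was 590 and 291 in the JNK_WT lines and 1410.5 and 1307 in the JNK_KO lines. This sum had a log2 difference of 1.71 (SE 0.42, limma adjusted p-value 0.434).

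B2m (plus strand of chromosome 2, 122147686 to 122153083), the light chain common to all class I molecules, was the most abundant of the 10 genes in each line. It reached 1344 and 279 FPKM in JNK_WT replicates 1 and 2, against 2167 and 1618.5 FPKM in JNK_KO replicates 1 and 3. JNK_WT replicate 1 lay much nearer to the JNK_KO lines than to JNK_WT replicate 2, which it exceeded 4.81-fold. The log2 difference between genotypes was 1.61 (SE 0.81, limma adjusted p-value 0.801), which became 0.48 without JNK_WT replicate 2 and 2.74 when JNK_WT replicate 1 was left out. The ratio of B2m to the sum of H2-K1 and H2-D1 was 2.61 and 1.13 in the JNK_WT lines and 1.99 and 1.58 in the JNK_KO lines, so the groups overlapped on this measure. No 40-base word of B2m occurs in another gene.

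**Figure D1:**
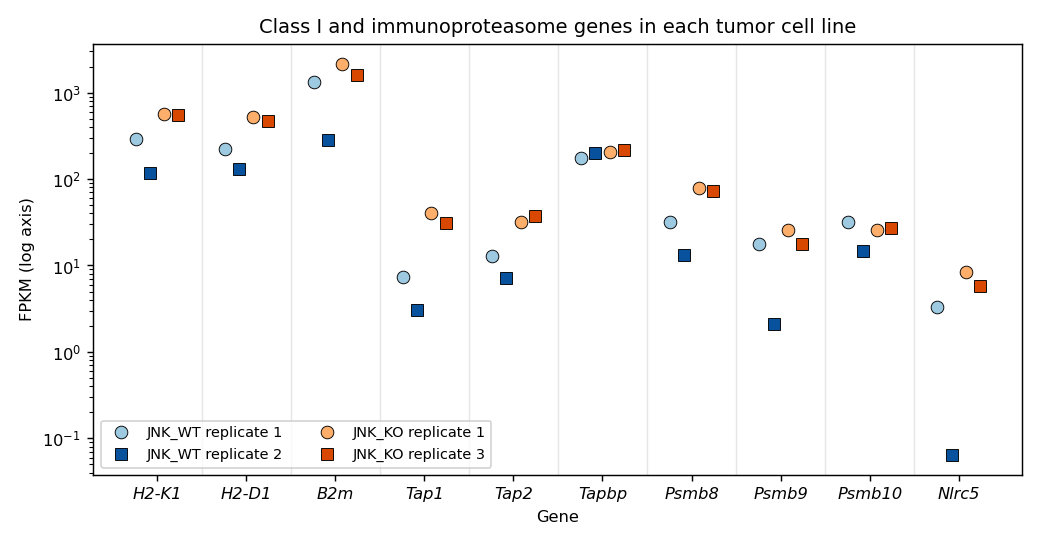
FPKM (log axis) of the 10 class I and immunoproteasome genes, with 1 point per tumor cell line (blue, JNK_WT, n = 2; orange, JNK_KO, n = 2). JNK_WT replicate 2 is the lowest line for 9 of the 10 genes, the exception being Tapbp, and the JNK_KO points lie close together for each gene.

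The TAP transporter is a dimer of the products of Tap1 and Tap2, and its genes had the widest gaps between the nearest lines of different genotype, 1.92 for Tap1 and 1.26 for Tap2 on the log2 scale. Tap1 (plus strand of chromosome 17, 34187553 to 34197225) was at 7.38 and 3.08 FPKM in the JNK_WT lines against 40.9 and 30.7 FPKM in the JNK_KO lines. The lower JNK_KO line was thus far above the higher JNK_WT line, and the spread within either genotype was smaller than the gap between them. The means were 5.23 ± 3.04 and 35.8 ± 7.19 FPKM (SD, n = 2 each), and the log2 difference was 2.64 (SE 0.45). The limma adjusted p-value of 0.256 was the lowest among the 10 genes. Leaving out each line in turn gave 2.12 to 3.16.

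Tap2 (plus strand of chromosome 17, 34203527 to 34216321) was at 12.7 and 7.18 FPKM in the JNK_WT lines against 31.9 and 36.9 FPKM in the JNK_KO lines. Here too the groups were apart by more than the spread within them, with a log2 difference of 1.74 (SE 0.35, limma adjusted p-value 0.340). Tap1 was lower than Tap2 in both JNK_WT lines (ratios of 0.579 and 0.429) and near or above it in the JNK_KO lines (1.28 and 0.833). The 2 genes share 35 of their 40-base words, 1.17% of those of Tap1.

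Tapbp (plus strand of chromosome 17, 33915899 to 33929292), which encodes tapasin, had the smallest difference of the 10 genes. It was at 176 and 200.05 FPKM in the JNK_WT lines against 206 and 219 FPKM in the JNK_KO lines. The groups did not overlap, but the gap between the nearest lines was 0.043 on the log2 scale, less than the spread of either genotype, and the log2 difference was 0.18 (SE 0.22, limma adjusted p-value 0.987), or 0.087 without JNK_WT replicate 1 and 0.27 without JNK_WT replicate 2. Tapbp was also the only one of the 10 genes that was higher in JNK_WT replicate 2 than in JNK_WT replicate 1.

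The groups lay apart to different degrees for the immunoproteasome genes. Psmb8 (plus strand of chromosome 17, 34197721 to 34201454), the subunit with chymotrypsin-like activity, was at 32.3 and 13.1 FPKM in the JNK_WT lines against 78.7 and 72.4 FPKM in the JNK_KO lines. Both JNK_KO lines were over 2-fold above both JNK_WT lines, with a log2 difference of 1.82 (SE 0.47, limma adjusted p-value 0.451), or 1.20 without JNK_WT replicate 2.

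Psmb9 (minus strand of chromosome 17, 34181987 to 34187764), the neighbour of Tap1 across their common promoter, reached 17.6 and 2.10 FPKM in JNK_WT replicates 1 and 2, against 25.7 and 17.9 FPKM in JNK_KO replicates 1 and 3. JNK_WT replicate 1 and JNK_KO replicate 3 were nearly level, 0.028 apart on the log2 scale, while the JNK_WT lines differed 8.38-fold. The log2 difference between genotypes was 1.57 (SE 0.92, limma adjusted p-value 0.858), 0.28 without JNK_WT replicate 2 and 2.86 without JNK_WT replicate 1. Tap1 in the same lines kept a gap of 1.92 between the nearest lines of different genotype. In the GENCODE annotation, which starts both genes further upstream, the 2 genes overlap by 212 exon bases on opposite strands, and since the counting was not stated to use strand, reads from that overlap cannot be told apart.

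Psmb10 (minus strand of chromosome 8, 105935735 to 105938444), the subunit with trypsin-like activity, was at 31.98 and 14.8 FPKM in the JNK_WT lines against 25.99 and 27.2 FPKM in the JNK_KO lines. The JNK_KO lines fell between the JNK_WT lines, and the groups overlapped. The log2 difference of 0.27 (SE 0.42, limma adjusted p-value 0.997) became -0.26 without JNK_WT replicate 2 and 0.80 without JNK_WT replicate 1.

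The standard catalytic subunits were compared with the immunoproteasome subunits that replace them. Psmb5, replaced by Psmb8, was at 82.2 and 155 FPKM in the JNK_WT lines against 136 and 166 FPKM in the JNK_KO lines. Psmb6, replaced by Psmb9, was at 171 and 249.6 FPKM in the JNK_WT lines against 197 and 194 FPKM in the JNK_KO lines. Psmb7, replaced by Psmb10, was at 242 and 219 FPKM in the JNK_WT lines against 316 and 260.2 FPKM in the JNK_KO lines. The standard subunits were thus the more abundant form in every pair and line.

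Psmb8 stood at 39.2% and 8.44% of the Psmb5 level in JNK_WT replicates 1 and 2, against 58.0% and 43.6% in JNK_KO replicates 1 and 3. Psmb9 stood at 10.3% and 0.839% of Psmb6 in the JNK_WT lines and at 13.0% and 9.26% in the JNK_KO lines. Psmb10 stood at 13.2% and 6.74% of Psmb7 in the JNK_WT lines and at 8.22% and 10.5% in the JNK_KO lines. Only for Psmb8 did the groups not overlap. The log2 ratios differed between genotypes by 1.42 for Psmb8, 1.65 for Psmb9 and -0.04 for Psmb10, with exact two-sided permutation p-values of 0.333, 0.667 and 1.0 (n = 2 each, 3 ratios compared, each 1.0 after Benjamini-Hochberg adjustment), where 0.333 is the smallest that 2 lines against 2 allow. The mean of the 3 log2 ratios was -2.47 in JNK_WT replicate 1, between the values of -2.41 and -2.59 of the JNK_KO lines, and -4.54 in JNK_WT replicate 2. The difference of 1.01 between genotypes in this mean (exact permutation p-value 0.667, n = 2 each) was -0.02 without JNK_WT replicate 2.

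**Figure D2:**
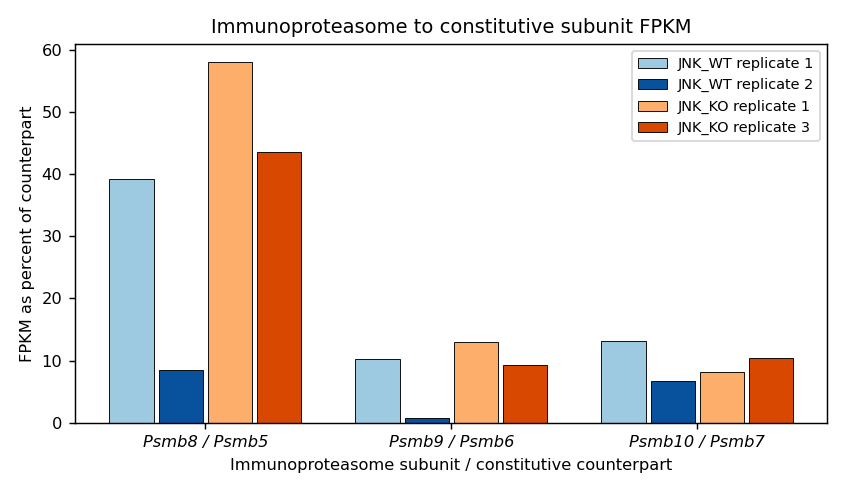
FPKM of each immunoproteasome subunit as a percent of the FPKM of the standard subunit it replaces (vertical axis), with 1 bar per tumor cell line and no error bars. JNK_WT replicate 2 has the shortest bar in each pair, at 8.44%, 0.839% and 6.74%, and JNK_WT replicate 1 lies near the JNK_KO lines for Psmb9 and above them for Psmb10.

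Nlrc5 (plus strand of chromosome 8, 94434356 to 94527272) was the least abundant of the 10 genes. It reached 3.27 and 0.0639 FPKM in JNK_WT replicates 1 and 2, against 8.51 and 5.84 FPKM in JNK_KO replicates 1 and 3. Nlrc5 was nearly absent from JNK_WT replicate 2, and the JNK_KO mean was 2.19-fold the level of JNK_WT replicate 1. The log2 difference was 1.92 (SE 0.75, limma adjusted p-value 0.668), 0.92 without JNK_WT replicate 2, 2.92 without JNK_WT replicate 1, and 3.27 with a pseudocount of 0.1. The line with the least Nlrc5 was also the line with the least H2-K1, H2-D1, B2m, Tap1, Tap2, Psmb8, Psmb9 and Psmb10. Of the factors that occupy the SXY module with NLRC5, Rfx5 (11.1, 7.79, 8.89 and 9.48 FPKM for JNK_WT replicates 1 and 2, then JNK_KO replicates 1 and 3) and Rfxank (2.58, 2.84, 2.43 and 2.98 FPKM) overlapped between groups. Rfxap was at 17.8 and 23.1 FPKM in the JNK_WT lines against 24.2 and 35.7 FPKM in the JNK_KO lines, a log2 difference of 0.51. Ciita, the class II counterpart of Nlrc5, was under 0.1 FPKM in all lines.

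**Figure D3:**
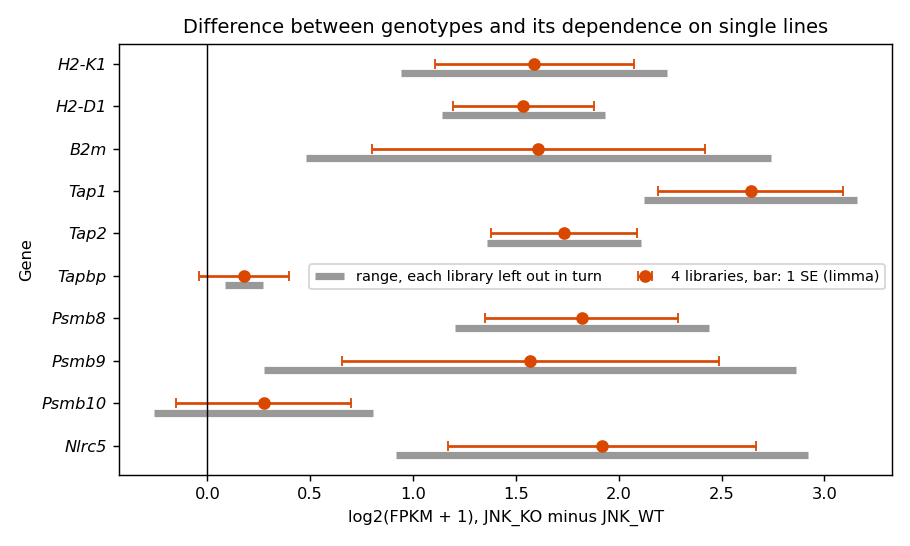
Difference between genotypes in log2(FPKM + 1), JNK_KO minus JNK_WT, for each gene (points; bars, 1 SE from limma, n = 2 lines per genotype), with grey bars for the range when each line is left out in turn. The values run from 0.18 for Tapbp to 2.64 for Tap1, and the grey bars of B2m and Psmb9 are the widest, while that of Psmb10 crosses 0.

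As a group, 9 of the 10 genes had both JNK_KO lines above both JNK_WT lines, against 18.3% of all genes tested, the exception being Psmb10. A log2 difference over 0.75 was found for 8 of the 10, all except Tapbp and Psmb10, against 9.25% of all genes tested in this direction. An unadjusted limma p-value under 0.05 was found for 5 of the 10 (H2-K1, H2-D1, Tap1, Tap2 and Psmb8), against 4.75% of all genes tested in this direction, which makes 617 genes of 992 in both directions. None of the 10 genes passed an adjusted p-value of 0.05 with a log2 difference over 0.75, nor did any of the 12998 genes tested by limma (0.0%, smallest adjusted p-value 0.0515). The median log2 difference was 1.60 over the 10 genes and 0.01 over all genes tested. The filter on low values favored no genotype here, since 9 of the genes were above 1 FPKM in all lines and Nlrc5 in 3 of the 4.

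The counts depended on which line was left out. These fits leave 1 genotype with a single line, which is taken to vary like the pair of the other genotype. Without JNK_WT replicate 1, the highest JNK_WT line for 9 of the 10 genes, the median log2 difference was 2.34 and 8 genes had an unadjusted limma p-value under 0.05 (5.43% of all genes tested). Without JNK_WT replicate 2 it was 0.93 with 5 such genes (6.78%). Without JNK_KO replicate 1 there were 2 such genes (2.90%), and without JNK_KO replicate 3 there were 3 (3.20%). The number of genes higher in all JNK_KO lines was 10 without JNK_WT replicate 1 and 9 under each other omission, against 31.9% to 37.5% of all genes tested.

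The JNK_WT lines lay far apart for most of the 10 genes. JNK_WT replicate 1 was above JNK_WT replicate 2 for 9 of the 10 genes and over 2-fold above it for 7, against 11.5% of all genes tested. For these 9 genes the ratio ranged from 1.74 for H2-D1 to 8.38 for Psmb9 where both lines were above 1 FPKM, and for Tapbp it was 0.881. The median log2 gap between these lines was 1.15 over the 10 genes and 0.0 over all genes tested, where the median size of the gap was 0.43. JNK_WT replicate 2 was the lowest line for 9 of the 10 genes (27.4% of all genes tested). The order JNK_WT replicate 2, JNK_WT replicate 1, both JNK_KO lines was found for 8 of the 10 genes and for 9.0% of all genes tested. For 7 of the 10 genes the gap between the JNK_WT lines exceeded the gap between the nearest lines of different genotype. The JNK_KO lines were nearer to each other than the JNK_WT lines for all 10 genes, against 58.4% of all genes tested, with a median size of the log2 gap of 0.18. The leukocyte marker sum was also higher in JNK_WT replicate 1 (23.1 FPKM) than in JNK_WT replicate 2 (3.90 FPKM), with Ptprc at 0.0134 and 0 FPKM. Col1a2 was higher in JNK_WT replicate 1 as well (10.3 against 0.374 FPKM), and the basal keratins Krt5 (0.0316 against 61.9 FPKM) and Krt14 (7.34 against 443 FPKM) were lower in it, genes chosen after their values were seen. The part of these markers in the gap between the JNK_WT lines was not tested.

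Other class I and class I-like heavy chains were taken from a list of 24 genes, of which 21 were in the table and 14 were tested. Of these 14, 12 had both JNK_KO lines above both JNK_WT lines, 9 had a log2 difference over 0.75 and 6 an unadjusted limma p-value under 0.05, all in this direction. The shares over all genes tested were 18.3%, 9.25% and 4.75%. The median log2 difference was 0.90. H2-Q2, H2-T24 and H2-M2, named after their values were seen, passed the filter only through the JNK_KO lines. Without them the counts were 9, 7 and 4 of 11, with a median of 0.88. Over all genes tested, without those that passed only through the JNK_KO lines, the same counts were 2077, 947 and 396 of 12692. The largest differences were in the Qa-2 genes H2-Q7 and H2-Q6, which encode nonclassical class I molecules. H2-Q7 was at 9.69 and 0.549 FPKM in the JNK_WT lines against 104 and 93.4 FPKM in the JNK_KO lines (log2 difference 4.62, limma adjusted p-value 0.347). H2-Q6 was at 4.605 and 0.368 FPKM in the JNK_WT lines against 60.6 and 39.4 FPKM in the JNK_KO lines (log2 difference 4.17, limma adjusted p-value 0.286). H2-Q4 was at 29.3 and 8.12 FPKM in the JNK_WT lines against 66.8 and 42.9 FPKM in the JNK_KO lines. These genes share 34.0% to 42.0% of their 40-base words with other genes, so the split of reads among them is uncertain.

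In the remaining loading machinery differences were smaller. Among 10 genes for folding, loading and trimming in the endoplasmic reticulum, none had an unadjusted limma p-value under 0.05, beside 992 of 12998 genes tested. Of the 10, 4 were higher in both JNK_KO lines (beside 18.3% of all genes tested) and 2 lower. The median log2 difference was 0.17. The chaperone Calr was at 237 and 178 FPKM in the JNK_WT lines against 429 and 269 FPKM in the JNK_KO lines (log2 difference 0.72). Its partner Pdia3 differed by 0.26, the chaperone Hspa5 by 0.59 and the peptide-trimming protease Erap1 by -0.35. Tapbpl, a relative of tapasin that edits peptides outside the loading complex, was at 20.6 and 15.4 FPKM in the JNK_WT lines against 6.46 and 12.2 FPKM in the JNK_KO lines (log2 difference -0.92, limma adjusted p-value 0.720).

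Differences were small in the rest of the proteasome. Over 11 other subunits of the core particle the median log2 difference was -0.003, with values from -0.37 (Psma3) and -0.34 (Psma6) to 0.31 (Psma5). It was 0.02 over 10 activators and assembly factors, where the interferon-inducible PA28 subunits Psme1 and Psme2 differed by -0.20 and 0.20 and the assembly and inhibitor genes Psmg1, Psmg2 and Psmf1 by 0.24, 0.24 and -0.22. It was 0.02 over 18 subunits of the regulatory particle, the largest differences being 0.46 (Psmc6), -0.34 (Psmc1) and 0.29 (Psmd2). None of these 39 genes had an unadjusted limma p-value under 0.05, beside 992 of all 12998 genes tested, or an absolute log2 difference over 0.75. Both JNK_KO lines were above both JNK_WT lines for 3 of the 11, 1 of the 10 and 4 of the 18 (18.3% of all genes tested). They were below both for 2, 2 and 1. For the 3 standard catalytic subunits the log2 differences were 0.41 (Psmb5), -0.08 (Psmb6) and 0.31 (Psmb7).

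Transcription factors of class I promoters included some with the same pattern as the class I genes. Of 15 tested, 7 were higher in both JNK_KO lines, against 18.3% of all genes tested. An unadjusted limma p-value under 0.05 in this direction was found for 3, against 4.75% of all genes tested. The median log2 difference was 0.16. Stat2 and Irf9, which act in the response to type I interferon, were among the 3. Stat2 was at 4.76 and 2.23 FPKM in the JNK_WT lines against 11.8 and 14.4 FPKM in the JNK_KO lines (log2 difference 1.70). Irf9 was at 8.63 and 4.01 FPKM in the JNK_WT lines against 19.6 and 21.9 FPKM in the JNK_KO lines (log2 difference 1.64). Irf1, the interferon-gamma response factor, was at 54.4 and 34.3 FPKM in the JNK_WT lines against 30.1 and 40.4 FPKM in the JNK_KO lines, and its groups overlapped.

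MHC class II genes, which present peptides from outside the cell, were mostly low. Of 11 genes 7 were under 1 FPKM in all lines, and H2-Aa was listed at 0 in all. Of the 4 tested, 3 had both JNK_KO lines above both JNK_WT lines (18.3% of all genes tested), or 2 of 3 without Ctss, which passed the filter only through the JNK_KO lines. The median log2 difference of the 4 was 0.73, or 0.44 without Ctss. Cd74, the invariant chain, was at 5.04 and 1.73 FPKM in the JNK_WT lines against 7.84 and 6.69 FPKM in the JNK_KO lines. Ctss, the protease that trims it, was at 0.182 and 0.0278 FPKM in the JNK_WT lines against 1.20 and 2.51 FPKM in the JNK_KO lines. H2-DMa, a chaperone of class II loading, differed by 0.44 on the log2 scale.

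**Figure D4:**
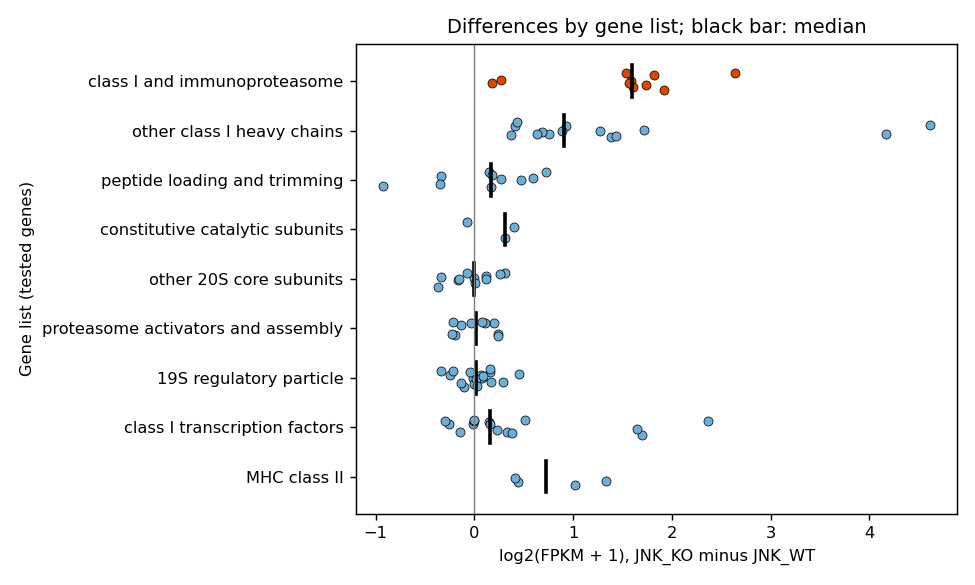
Difference in log2(FPKM + 1), JNK_KO minus JNK_WT, for every tested gene of each list (1 point per gene; vertical offsets only separate the points) with the median as a black bar. The medians are 1.60 for the 10 class I and immunoproteasome genes and 0.90 for other class I heavy chains. They are between -0.003 and 0.31 for the loading, proteasome and transcription factor lists, and 0.73 for the 4 MHC class II genes tested (0.44 without Ctss).

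Of the 10 genes 7 lie on chromosome 17, where H2-K1 and H2-D1 flank a stretch that also holds Tap1, Tap2, Psmb8 and Psmb9, with Tapbp just outside it. The 51 other tested genes between H2-K1 and H2-D1 that are in none of the lists had a median log2 difference of 0.02, and 9 of them (17.6%) had both JNK_KO lines above both JNK_WT lines. An unadjusted limma p-value under 0.05 was found for 5 of the 51 (9.8%, beside 4.75% of all genes tested) in this direction. They were Gm20496, Gm15821, the complement genes C4b (log2 difference 2.56) and Cfb (1.55), and the cytokine gene Ltb (2.10), all named after their values were seen. Of these, C4b (0 and 0.0472 FPKM in the JNK_WT lines) and Ltb (0.193 and 0.469 FPKM) passed the filter on low values only through the JNK_KO lines. The share with both JNK_KO lines above both JNK_WT lines was 10.9% of 605 genes on chromosome 17 in no list. These 605 genes include the 51. The same share was 25.3% of 996 such genes on chromosome 2, where B2m lies, and 28.6% of 598 on chromosome 8, where Psmb10 and Nlrc5 lie. The neighbours Gm20496 (9.61 and 3.92 FPKM in JNK_WT and 25.7 and 22.7 FPKM in the JNK_KO lines) and Gm15821 (2.82 and 1.49 FPKM in JNK_WT and 7.09 and 5.95 FPKM in the JNK_KO lines) overlap Psmb8 and Tap2 on the opposite strand. Gm20496 covers 14.7% of the exon bases of Psmb8 and 4.36% of those of Tap2, and Gm15821 covers 14.1% of those of Tap2, so their reads and those of Psmb8 and Tap2 cannot be told apart without strand.

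The genes whose profile over the 4 lines was most like the mean profile of the 10 genes were found by Euclidean distance between centred log2(FPKM + 1) values. The mean profile was -0.10 in JNK_WT replicate 1, -1.39 in JNK_WT replicate 2, 0.83 in JNK_KO replicate 1 and 0.66 in JNK_KO replicate 3. The nearest gene was Ifih1, which encodes the double-stranded RNA sensor MDA5, at a distance of 0.12 and at 8.001, 2.50, 16.7 and 15.2 FPKM in the same order of lines. It was followed by Parp14 (0.22), the lysosomal lipase gene Lipa (0.24), the interferon-induced gene Ifit2 (0.27) and the kinase gene Mapkapk3 (0.28). The likeness rests on only 4 lines and describes these profiles.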

How the data were processed

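RNA of the 4 cell lines was sequenced by the study as single-end reads of 40 bases. The authors trimmed the reads with Trimmomatic, sampled them with seqtk, aligned them to mm10 (GRCm38) with Bowtie2 and TopHat2 2.0.14, and estimated FPKM with Cufflinks 2.2.1. The deposited values are FPKM per gene and library, not pooled. The gene annotation and the use of strand are not given in the sources used here. Total read counts were not used, so no interval that needs a count was computed.

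From the table, 27 rows with symbols turned into dates and 1 row without values were dropped. The remaining genes were filtered to those that reached 1 FPKM in 2 or more libraries, and log2(FPKM + 1) was compared, JNK_KO minus JNK_WT, with limma 3.58.1 (trended eBayes, two-sided) in R 4.3.3 and Benjamini-Hochberg adjustment over all 12998 genes. Calls needed a difference over 0.75 in size (log2) and an adjusted p-value under 0.05. The pseudocount understates changes of low genes. Ratios of subunits used an exact permutation test over samples. The limma fit was tested on data simulated with independent normal noise in each gene. Line differences shared by many genes were not simulated, so the p-values are not checked for them. Positions and exon overlaps came from GENCODE M21 (GRCm38), matched by symbol, and promoters from RefSeq (GRCm38.p6).

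The 10 genes and the gene lists were chosen with earlier results of these data known. The genes named were the 10, the targeted genes, Psmb5, Psmb6 and Psmb7, the 3 tested genes of largest absolute difference in each other list, a set of regulators and loading genes fixed by name, and the 5 genes most like the mean profile. Ptprc was added as the defining leukocyte marker after its values were seen. Other genes outside the rule were also named after their values were seen, such as the collagen genes, Thy1, Lum, Krt5, Krt14, H2-Q2, H2-T24, H2-M2 and genes between H2-K1 and H2-D1. A gene that this rule names is not reported here, though it is part of the counts. Where genes of a list were not described singly, the list was given by its count and median. Alternatives were other pseudocounts, filters, scalings, variance models and thresholds, and leaving out each library. Figures were drawn with matplotlib 3.10.9 (Python 3.11.15, pandas 2.3.3, scipy 1.17.1).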

Additional observations from a re-analysis of the deposited data

How the results depend on the processing

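No gene was called in the fit described (0 of 12998 by limma, with 992 genes at an unadjusted p-value under 0.05). The number of genes called was 10 with a pseudocount of 0.1, 14 with 0.5, 14 without the intensity trend and 25 at an adjusted p-value threshold of 0.1, and none of the class I and immunoproteasome genes was among them. Over 9 other settings of pseudocount, filter, scaling and variance model, the 10 genes kept their direction (8 settings for Nlrc5, which was not tested at a mean of at least 5 FPKM), with a lowest limma adjusted p-value of 0.247, for Tap1. Leaving out each library in turn gave medians of 0.93 to 2.34 over the 10 genes against 1.60, and 2 to 8 genes with an unadjusted limma p-value under 0.05 against 5, the latter counts having been added after the data were seen. For Psmb10 the log2 difference ranged from -0.26 to 0.80, reversed without JNK_WT replicate 2. The difference in the mean immunoproteasome log2 ratio, 1.01, ranged from -0.025 to 2.04, reversed without that library. The cause was not tested. No paired analysis was possible because replicate 1 is the sole number common to both genotypes, and it names unrelated cell lines. With 2 libraries per genotype, the precision of every value rests on the spread between few lines, which limma draws towards a trend over all genes. Values near the floor, such as that of Nlrc5 in JNK_WT replicate 2 (0.0639 FPKM), rest on few reads.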
